A study of Mus musculus with 8 samples.

Results

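The 9 genes followed here write, read or erase DNA methylation, and they were measured in the RNA and DNA hydroxymethylation data of 2 cell populations sorted from the adult mouse brain. They were chosen by gene symbol from a list and are Dnmt1, Dnmt3a, Uhrf1, Uhrf2, Mbd1, Mbd2, Mbd3, Mbd4 and Tdg. Of these 9 genes, 8 are among the 11315 genes of the RNA tables, and Uhrf1 is not listed there. In the hydroxymethylation tables, the promoter, exon or intron column named one of the 9 genes at 518 of 1497075 records, where a record is 1 CpG on 1 strand. Both populations came from C57BL/6 mice aged 60 postnatal days. Adult oligodendrocyte progenitor cells (aOPC) were sorted for EGFP driven by the Pdgfra locus, and adult oligodendrocytes (aOL) for EGFP driven by Plp. Each population had 2 RNA libraries and 2 libraries of reduced representation hydroxymethylation profiling (RRHP), numbered replicates 2 and 3, and a first replicate was not analysed here. Animals of either sex were used per the methods, and DNA and RNA came from the same pellet of sorted cells. For RRHP of aOL, the tissue label gives the Pdgfra reporter, and the titles decided the group. The aOL RNA titles call the cells pre-myelinating and the protocol calls them myelinating.

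DNA methylation is copied after replication by DNMT1, which UHRF1 brings to hemimethylated CpGs, while DNMT3A places methyl groups on unmethylated DNA. Proteins with a methyl-CpG binding domain (the MBD family) read the mark and bring in co-repressors such as the NuRD complex, and UHRF2, a relative of UHRF1, can bind 5-hydroxymethylcytosine (5hmC). TET enzymes oxidize 5-methylcytosine to 5hmC and further forms, and the glycosylases TDG and MBD4 start the base-excision repair that returns an unmodified cytosine or corrects a T:G mismatch. RRHP reports 5hmC at CCGG sites, since a glucosylated 5hmC shields the site from the enzyme MspI and only shielded ends give reads.

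The RRHP libraries held 7113237 to 27057859 counts, with aOPC replicate 2 the shallowest. Of their counts, 5.74% fell in CpG islands in aOPC replicate 2, against 2.38% to 3.32% in the other libraries. The cell type labels were checked against marker genes. Of 10 OPC markers in the RNA tables, 5 were lower in both aOL libraries than in both aOPC libraries and 1 was higher. Over all 11133 genes tested, 61.8% did not overlap in either direction, and 31.9% did not overlap with aOL higher. Pdgfra, the receptor that defines the sort, was 7.54 and 5.47 in aOPC, against 4.98 and 1.63 in aOL (log2). The summed level of the OPC markers was 13.50 and 10.94 in aOPC, against 11.43 and 11.76 in aOL (log2 of the sum). The 12 oligodendrocyte markers went against the aOPC label, since their summed level was 22.71 and 22.53 in aOPC, against 22.66 and 22.69 in aOL, and Mbp, a major myelin protein gene, was 19.58 and 17.55 in aOPC, against 19.17 and 19.40 in aOL. The libraries labelled aOPC therefore held myelin transcripts at the level of aOL. In bulk samples, fewer cells of a type and less RNA per cell cannot be told apart. Summed levels were 13.82 and 13.49 against 13.43 and 13.63 for 8 astrocyte markers, 12.52 and 11.89 against 12.10 and 11.67 for 10 microglia markers, 12.14 and 12.46 against 11.68 and 11.84 for 6 neuron markers, and 9.07 and 9.37 against 9.83 and 10.25 for 2 endothelial markers, aOPC first. The median difference of the astrocyte list was -0.68 log2, with 1 of 8 genes higher and 3 lower in aOL without overlap. Of these Gjb6, a connexin gene, was 9.90 and 9.44 in aOPC, against 7.13 and 6.44 in aOL (difference -2.88, SE 0.34, limma adjusted p = 0.106). The median was -0.53 in the microglia list, with 1 of 10 higher and 3 lower without overlap. The counts of both lists stand beside the same 61.8% and 31.9% of all genes. Of the endothelial pair, Cldn5, a tight junction gene, was 0.33 and 1.80 in aOPC, against 5.92 and 7.13 in aOL. It met the filter of log2 of at least 5 in at least 2 libraries only through aOL, so no size is given for its difference. Kdr was 9.07 and 9.36 in aOPC, against 9.73 and 10.07 in aOL. No listed marker was at 0, but the Cldn5 value of 0.33 in aOPC replicate 2 was close to the bottom of the scale and does not show detection. The part of these cells in the differences given here was not tested.

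Strong hydroxymethylation sites of 6 of the genes stand below as sequences of GRCm38.p6, the forward strand 5′ to 3′, with the CCGG of the chosen site in capitals. Another CCGG at the start of the Dnmt3a internal promoter window, in lower case, was also read. Its minus strand had 4 and 11 reads in aOPC, against 4 and 14 in aOL. They are shown because they had the highest mean CPM (counts scaled to the library total) of their gene's body or promoter over the 4 libraries, except that Uhrf1 is shown by its second highest gene body site, since the window of its highest site holds UTR. Here exon, intron and UTR follow GENCODE transcripts of the same assembly.
Dnmt1 intron, chr9:20944116-20944179: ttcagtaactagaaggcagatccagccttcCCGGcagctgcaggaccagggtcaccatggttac
Dnmt3a intron, chr12:3815106-3815169: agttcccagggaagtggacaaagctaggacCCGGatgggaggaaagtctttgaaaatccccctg
Dnmt3a internal promoter, chr12:3891310-3891373: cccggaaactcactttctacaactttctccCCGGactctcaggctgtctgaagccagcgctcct
Uhrf1 coding exon, chr17:56318309-56318372: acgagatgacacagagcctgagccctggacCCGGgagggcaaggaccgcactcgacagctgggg
Uhrf2 upstream, chr19:30029803-30029866: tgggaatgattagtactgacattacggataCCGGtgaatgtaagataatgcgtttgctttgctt
Mbd3 coding exon, chr10:80395207-80395270: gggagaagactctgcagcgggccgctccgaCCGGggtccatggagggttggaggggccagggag
Tdg coding exon, chr10:82641373-82641436: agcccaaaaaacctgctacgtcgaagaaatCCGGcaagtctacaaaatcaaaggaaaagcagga

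None of the 8 measured genes was called between aOL and aOPC in RNA (limma, called where p was below 0.01 and the p adjusted by Benjamini-Hochberg below 0.05), where 0.0808% of the 11133 genes tested were called. At an unadjusted p under 0.05, 1 of the 8 genes passed, Mbd2, against 24.0% of all genes tested. Dnmt1 and Mbd2 had the highest differences, and the other 6 differed by at most 0.18 log2 in either direction. The median absolute difference was 0.09 log2 over the 8 genes and 0.44 over all genes tested. Replicates lay a median of 0.41 log2 apart in aOPC and 0.10 in aOL over the 8 genes, and 0.48 and 0.12 over all genes.

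**Figure D1:**
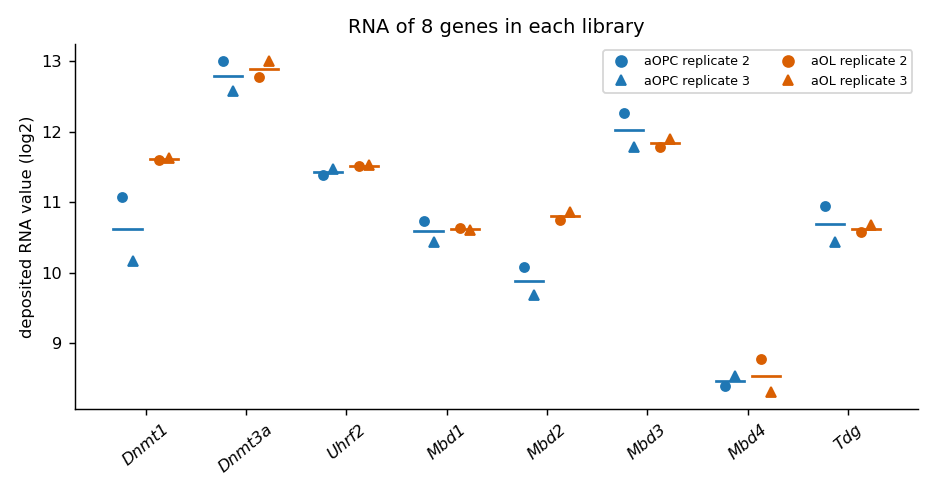
Deposited RNA values (log2, vertical axis) of 8 genes in each of the 4 libraries, with aOPC in blue, aOL in orange, circles for replicate 2, triangles for replicate 3 and bars for the mean of 2 libraries. Dnmt1 and Mbd2 lay higher in both aOL libraries than in both aOPC libraries, and Dnmt3a had the highest values.

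Dnmt1, the maintenance methyltransferase, was 11.08 and 10.16 in aOPC, against 11.60 and 11.63 in aOL (log2, replicates 2 and 3). Both aOL values were above both aOPC values, and the aOPC replicates differed from each other by 0.924. The difference was 1.0 (SE 0.37, 95% interval -0.01 to 2.01), a 2.0-fold higher mean in aOL, and it did not pass the test (limma, adjusted p = 0.212). Without aOPC replicate 2, with the lone aOPC library assumed to vary like aOL, it was 1.46 and was called (limma, adjusted p = 0.0183), in a fit that called 34.2% of all genes. Without aOPC replicate 3 it was 0.53 and was not called (limma, adjusted p = 0.0558). Groups that did not overlap with aOL higher were found in 3 of the 8 genes (Dnmt1, Mbd2 and Uhrf2) and in 31.9% of all genes tested, and no gene of the 8 had both aOL values below both aOPC values. In either direction, 61.8% of all genes tested did not overlap.

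Dnmt3a, the de novo methyltransferase, was 13.01 and 12.58 in aOPC, against 12.78 and 13.00 in aOL. The groups overlapped, and the difference was 0.09 (SE 0.25, 95% interval -0.58 to 0.77). Per length of merged exon, Dnmt3a stood at 8.78 log2 per kb and Dnmt1 at 8.24, closer together than on the deposited scale. The deposited values correlated weakly with that length (Spearman rho 0.1 over 10929 genes). Whether they were already corrected for length is not known, so the smaller gap holds on the per kb scale only. By population, Dnmt1 had a mean of 7.74 log2 per kb in aOPC and 8.73 in aOL, and Dnmt3a 8.74 and 8.83.

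Uhrf2 was the steadiest of the 8 genes, at 11.39 and 11.47 in aOPC, against 11.51 and 11.53 in aOL. The aOL values were both higher, but the difference of 0.09 (SE 0.19, 95% interval -0.42 to 0.60) did not pass the test. Uhrf1, which directs DNMT1 to replicated DNA in dividing cells, could not be compared in RNA.

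Among the methyl-CpG readers, Mbd2 was 10.08 and 9.68 in aOPC, against 10.75 and 10.86 in aOL. No aOPC value reached the aOL values, and the difference was 0.92 (SE 0.23, 95% interval 0.28 to 1.56), 1.90-fold, with a limma adjusted p = 0.154. Without aOPC replicate 2 it was 1.12, and without aOPC replicate 3 it was 0.72. Mbd3, the MBD subunit of NuRD that binds methylated CpGs weakly, was 12.26 and 11.78 in aOPC, against 11.78 and 11.89 in aOL. Its groups overlapped, with a difference of -0.18 (SE 0.25, 95% interval -0.87 to 0.51). Mbd1 was 10.73 and 10.44 in aOPC, against 10.64 and 10.61 in aOL, so that the aOL pair lay inside the aOPC pair (difference 0.04, SE 0.21, 95% interval -0.53 to 0.62).

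Of the glycosylases, Mbd4 had the lowest values of the 8 genes. It was 8.39 and 8.53 in aOPC, against 8.77 and 8.30 in aOL, with a difference of 0.07 (SE 0.25, 95% interval -0.61 to 0.76). Tdg was 10.94 and 10.43 in aOPC, against 10.57 and 10.67 in aOL, with a difference of -0.06 (SE 0.26, 95% interval -0.76 to 0.64). Both glycosylase genes overlapped between the populations.

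As deposited, Dnmt3a (means of 12.79 in aOPC and 12.89 in aOL) was above Mbd3 (12.02 and 11.84). The order changes on the scale per kb of merged exon, which assumes that the deposited values follow length. Over the 4 libraries it was Mbd3 (10.94), Dnmt3a (8.78), Mbd2 (8.66), Uhrf2 (8.37), Dnmt1 (8.24), Tdg (8.22), Mbd1 (7.86) and Mbd4 (6.10). Per kb, Mbd3 stood above 88.4% of the genes with a length and Mbd4 above 20.8%, while the other 6 stood above 42.5% to 59.0%. The range over the 4 libraries was 1.47 log2 for Dnmt1, 1.18 for Mbd2 and 0.14 to 0.51 for the others, so that from Dnmt3a to Tdg no pair of adjacent genes in this order lay further apart than the larger of their ranges. On the per kb scale the lead of Mbd3 over Dnmt3a was larger than the ranges of either gene (0.48 and 0.42), and so was the distance from Mbd1 (0.29) down to Mbd4 (0.47). Of all genes tested, the 3 whose centred values lay nearest to those of Dnmt1 over the 4 libraries were Dhx38 (distance 0.035), Kidins220 (0.036) and Dnajc13 (0.041). Among the other measured genes Mbd2 was nearest to Dnmt1 (0.382), and Dnmt3a was next (0.981). The closest pair of all was Mbd3 and Tdg (0.121), both highest in aOPC replicate 2.

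**Figure D2:**
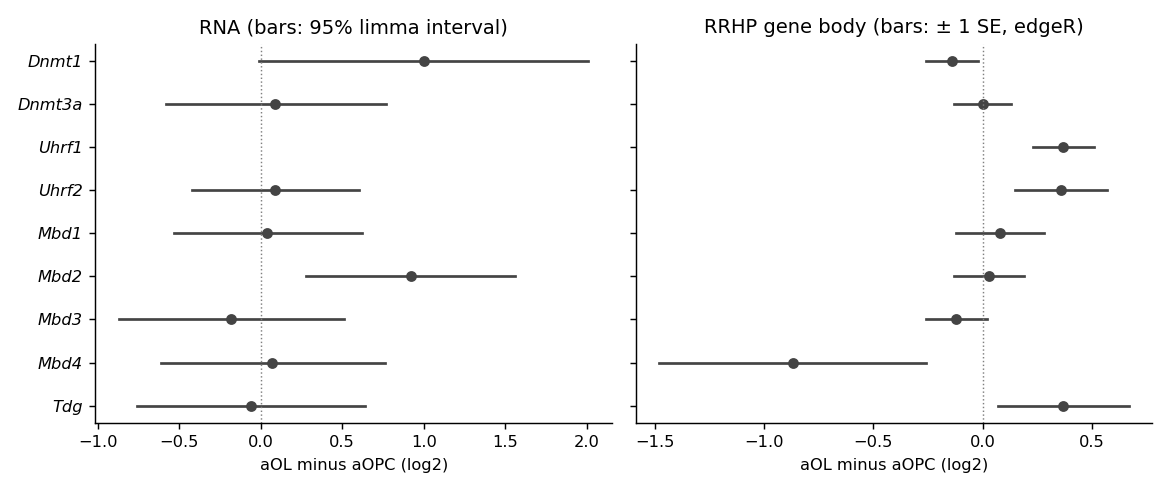
Differences between aOL and aOPC (log2, horizontal axis) for RNA with 95% limma intervals (left) and for RRHP gene bodies with bars of 1 SE from edgeR (right), 1 line per gene. Only the RNA interval of Mbd2 (0.28 to 1.56) leaves out 0, no gene was called on either side, and Uhrf1 has no RNA value.

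With all 4 libraries no gene of the 6 related lists was called in RNA, and the counts at an unadjusted p under 0.05 stand against 24.0% of all genes tested. Among the other writers and cofactors, 6 of 10 genes were tested and 1 passed an unadjusted p under 0.05. This was Cdca7, an activator of the remodeller HELLS that is tied to cell division, at 7.07 and 6.36 in aOPC, against 5.48 and 5.08 in aOL (difference -1.44, SE 0.34, limma adjusted p = 0.145). The Cdca7 difference was -1.08 without aOPC replicate 2 and -1.79 without aOPC replicate 3. Among 10 other methyl-CpG readers, Setdb1, a histone H3 lysine 9 methyltransferase with an MBD-like domain, was 10.97 and 10.73 in aOPC, against 11.48 and 11.60 in aOL (difference 0.68, SE 0.21, limma adjusted p = 0.175). The Setdb1 difference was 0.80 without aOPC replicate 2 and 0.56 without aOPC replicate 3. Of the readers, 4 of 10 did not overlap with aOL higher and none with aOL lower, where over all genes tested 31.9% did not overlap with aOL higher and 61.8% in either direction. Of 11 NuRD partners, 1 passed the unadjusted threshold, Mta1, at 8.06 and 8.44 in aOPC, against 9.08 and 9.05 in aOL (difference 0.82, SE 0.23, limma adjusted p = 0.164). The Mta1 difference was 0.63 without aOPC replicate 2 and 1.01 without aOPC replicate 3. The remodeller subunit Chd4 differed by 0.56 (SE 0.24) and the deacetylase Hdac1 by -0.32 (SE 0.19), and neither passed. Groups did not overlap in 5 NuRD genes with aOL higher and in 2 with aOL lower, and in 1 and 1 of the 6 writers and cofactors.

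Of 22 base-excision repair genes 19 were tested, and 1 passed the unadjusted threshold, against 24.0% of all genes tested. This was the DNA ligase gene Lig3, at 12.07 and 11.71 in aOPC, against 12.70 and 12.55 in aOL (difference 0.74, SE 0.23, limma adjusted p = 0.180). The Lig3 difference was 0.92 without aOPC replicate 2 and 0.56 without aOPC replicate 3. Parp1, a sensor of strand breaks, differed by 0.61 (SE 0.28), and Polb, the repair polymerase, by -0.37 (SE 0.26). The list had 3 genes without overlap with aOL higher and 4 with aOL lower, against 31.9% of all genes tested with aOL higher and 61.8% in either direction, and a median difference of -0.15 log2, and the 3 Tet genes had a median of 0.06 with none passing, at 9.49 to 12.17 log2. Of 13 replication and division genes tested, 6 did not overlap with aOL higher and 3 with aOL lower, beside the same 31.9% and 61.8% of all genes. Only the helicase subunit gene Mcm4 passed the unadjusted threshold, at 10.28 and 10.72 in aOPC, against 11.68 and 11.33 in aOL. Pcna, which helps to recruit DNMT1 to replication forks, was 12.28 and 12.68 in aOPC, against 12.10 and 12.02 in aOL. The division marker Mki67 was 6.28 and 0.32 in aOPC, against 5.33 and 0.32 in aOL, so that in both populations 1 library was close to the bottom of the scale.

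**Figure D3:**
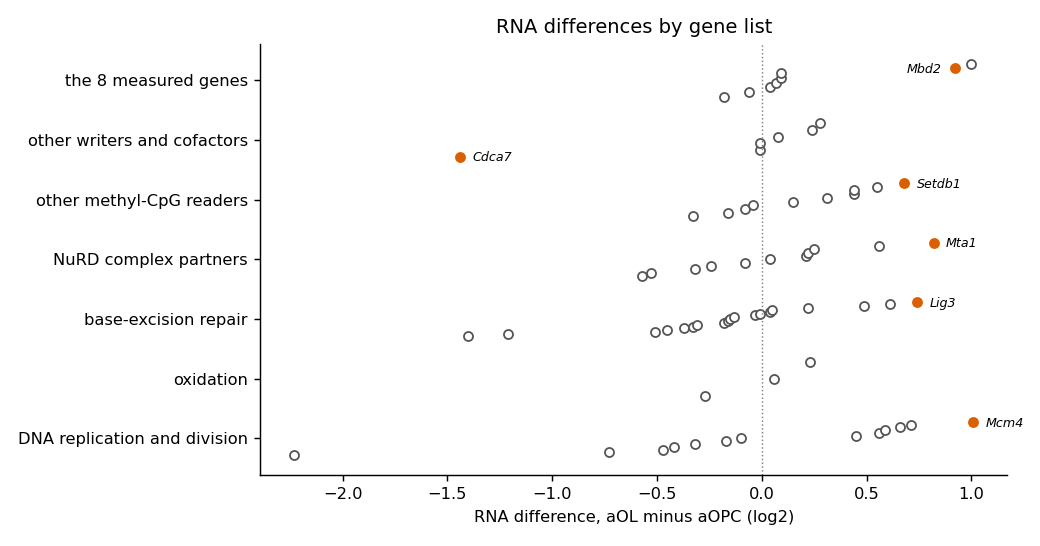
RNA differences between aOL and aOPC (log2, horizontal axis) of the tested genes of 7 lists, 1 point per gene, with genes at an unadjusted limma p under 0.05 filled and named. No list had more than 1 such gene, and none of them was called after adjustment.

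In RRHP all 518 records of the 9 genes lay at a CCGG of the reference. Of them 168 had at least 10 reads in at least 2 libraries and could be tested singly. Records were most numerous in Dnmt3a (164) and Dnmt1 (103), followed by Uhrf1 (61), Mbd2 (58), Uhrf2 (46), Mbd3 (34), Mbd1 (24), Tdg (20) and Mbd4 (8). Within the gene spans, between 39.6% (Tdg) and 72.5% (Mbd3) of the strand positions of CCGG sites were read. Reads were sparse in the CpG islands and promoters of the 9 genes. Island records were 19.9% of the 518 but held 5.04% of the counts scaled to the library total (CPM), and records in a promoter column were 38.2% with 13.1% of the CPM. Over all genes the same shares were 21.6% and 5.80% for islands and 28.2% and 11.3% for promoters. The median record had 0.111 CPM in the promoters of the 9 genes and 0.466 CPM in their gene bodies outside promoters, against 0.140 and 0.294 over all genes. The Spearman correlation of CPM with the number of CpGs within 100 bases was -0.25 over the 518 records and -0.03 over all CCGG records of the series, where neighbouring records share sequence and libraries.

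**Figure D4:**
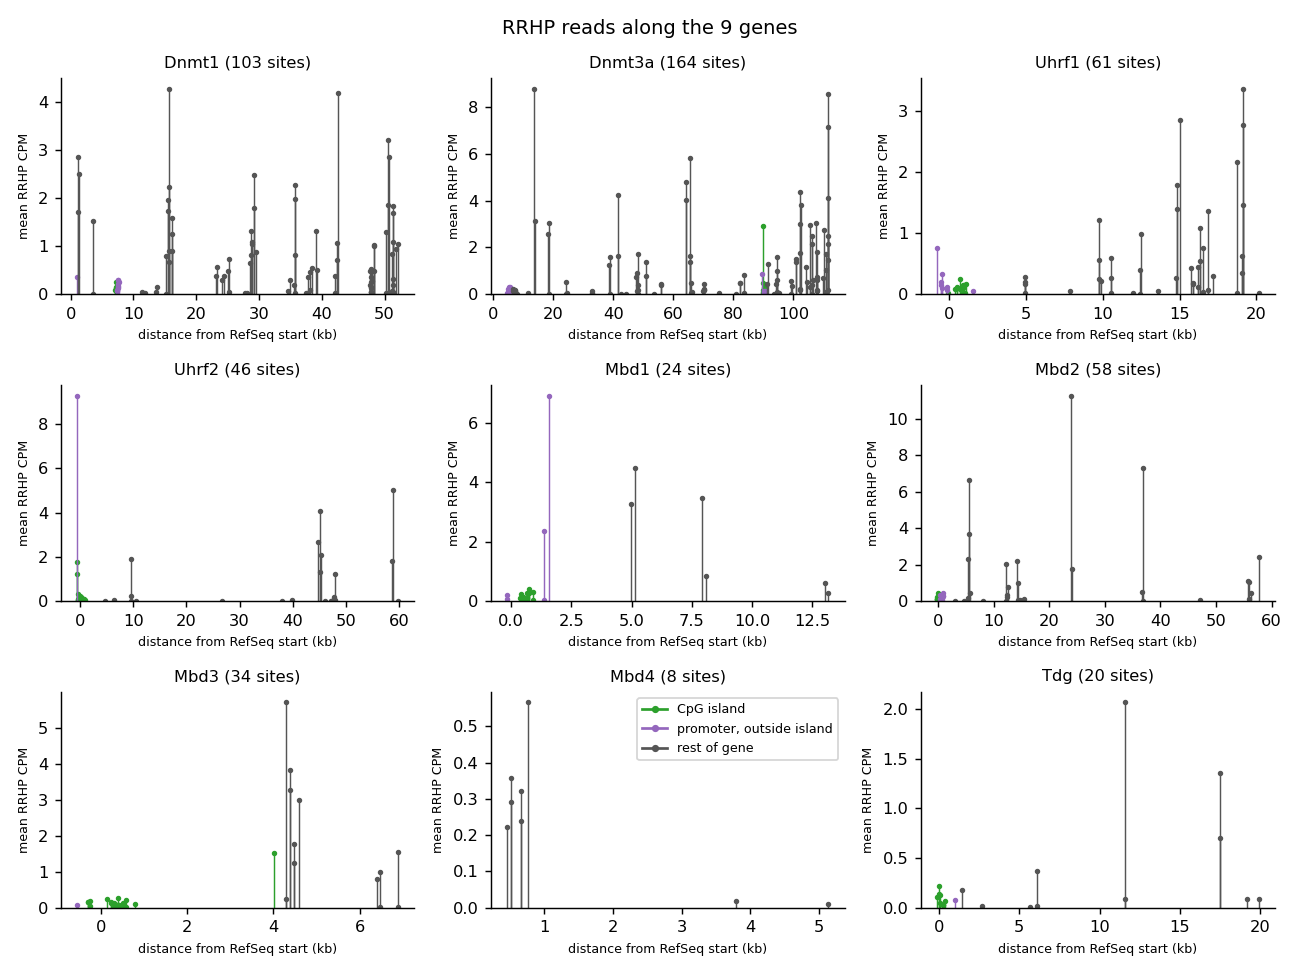
Mean RRHP CPM over the 4 libraries (vertical axis, own scale per gene) at each record against its distance from the RefSeq start (kb, positive into the gene), with island records in green, promoter records outside islands in purple and the rest in grey. Records near the start stay low in most genes, whereas Uhrf2 and Mbd1 have their tallest record in the promoter column.

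No gene body of the 9 genes was called (edgeR quasi-likelihood test, adjusted p under 0.05), where 0.849% of the 18488 gene bodies tested were called. At an unadjusted p under 0.05 it was 1 of 9, Uhrf1, against 7.30% of all. Gene bodies without overlap in CPM were found in 4 of the 9 genes and in 38.8% of all gene bodies tested. Uhrf1, Uhrf2 and Tdg were higher in both aOL libraries and Dnmt1 lower.

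Uhrf1 had 24.3 and 26.2 CPM in aOPC, against 31.7 and 34.1 CPM in aOL over 53 gene body records. Its means were 25.3 ± 1.35 (SD, n = 2) and 32.9 ± 1.72, and both aOL libraries lay above both aOPC libraries. The log2 fold change was 0.37 (SE 0.14), with an edgeR adjusted p = 0.535. Without aOPC replicate 3 it was 0.45 and was called (edgeR, adjusted p = 0.0201), in a fit with 1 shallow aOPC library that called 22.7% of all gene bodies. Of its records, 2 passed an unadjusted p under 0.05, both higher in aOL and both in exons towards the end of the gene, and none passed in the other direction. The record at position 56322498 of chromosome 17 on the minus strand, in a coding exon, had 16 and 45 reads in aOPC, against 69 and 115 in aOL (2.25 and 2.63 against 4.33 and 4.25 CPM, edgeR adjusted p = 0.466). The record at 56320217 on the plus strand had 0 and 18 reads in aOPC, against 29 and 70 in aOL, and its log2 fold change was 1.65 (SE 0.60, edgeR adjusted p = 0.290). This record was singled out after its values were seen. A count of 0 in aOPC replicate 2 allows up to 0.422 CPM. Leaving out 1 library at a time, the log2 fold change was 1.11 without aOPC replicate 2 and 8.2 without aOPC replicate 3, where the lone aOPC library is at 0 and the fitted value depends on the prior count. With all 4 libraries the record was called with a replicate block (edgeR, adjusted p = 0.0275) and when sites with at least 3 reads in total were tested (edgeR, adjusted p = 0.0463).

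Uhrf2 had 13.5 and 23.2 CPM in aOPC, against 25.3 and 24.0 CPM in aOL over its gene body. The difference (log2 fold change 0.36, SE 0.21, edgeR adjusted p = 0.75) was carried by aOPC replicate 2, and aOPC replicate 3 stood close to the aOL libraries. It was 0.06 without aOPC replicate 2 and 0.87 without aOPC replicate 3. Its 2 strongest gene body records were in a coding exon at 30089343 of chromosome 19 (29 and 112 reads in aOPC, 80 and 122 in aOL) and in an intron at 30075572 (11 and 75 reads, then 82 and 139). Dnmt1 had 85.6 and 79.0 CPM in aOPC, against 75.7 and 74.4 CPM in aOL, with means of 82.3 ± 4.70 and 75 ± 0.973 (SD, n = 2). Its log2 fold change was -0.14 (SE 0.12, edgeR adjusted p = 0.797), opposite in sign to the RNA difference of 1.0, and neither passed its test. The strongest Dnmt1 records were the intron site printed above (28 and 86 reads in aOPC, 67 and 106 in aOL) and a coding exon site at 20917384 of chromosome 9 (42 and 65 reads, then 48 and 109).

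Dnmt3a had the most gene body reads, 125 and 147 CPM in aOPC, against 138 and 137 CPM in aOL (log2 fold change 0.00, SE 0.13). The intron site printed above had 56 and 157 reads in aOPC, against 164 and 213 in aOL, 7.87 and 9.17 against 10.3 and 7.87 CPM. A site in the UTR at 3913040 of chromosome 12 had 42 and 170 reads in aOPC, against 144 and 254 in aOL. Both sites had more reads than 99.6% of all records of the series, and both overlapped between the populations.

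Mbd2 had 41.3 and 55.9 CPM in aOPC, against 52.8 and 48.3 CPM in aOL over its gene body, which overlapped in spite of its RNA difference of 0.92. Its intron record at 70592173 of chromosome 18 was the strongest of all 518, with 81 and 231 reads in aOPC, against 168 and 262 in aOL. That is 11.4 and 13.5 CPM against 10.6 and 9.68 CPM (log2 fold change -0.41, SE 0.25, edgeR adjusted p = 0.670). Mbd1 had 17.2 and 27.1 CPM in aOPC, against 26.1 and 22.6 CPM in aOL, and Mbd3 25.3 and 27.9 CPM in aOPC, against 26.1 and 23.5 CPM in aOL. Both overlapped, with log2 fold changes of 0.08 (SE 0.20) and -0.12 (SE 0.14). Mbd1 was at -0.18 without aOPC replicate 2 and at 0.50 without aOPC replicate 3. The strongest Mbd3 record, printed above, had 45 and 103 reads in aOPC, against 75 and 155 in aOL, and it lay 4292 bases from the RefSeq start, in the intron column of the deposited tables.

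The glycosylase genes had the fewest reads. Tdg had 27 and 87 reads in aOPC, against 90 and 166 in aOL, that is 3.8 and 5.08 against 5.65 and 6.14 CPM (log2 fold change 0.37, SE 0.30, edgeR adjusted p = 0.790). Of its gene body CPM, 40% came from the coding exon site printed above. Mbd4 had 28 and 24 reads in aOPC, against 20 and 41 in aOL over 8 records, none of which reached the minimum for a single-site test. Its CPM was 3.94 in aOPC replicate 2 and 1.26 to 1.52 in the other libraries, so the log2 fold change of -0.87 (SE 0.61, edgeR adjusted p = 0.768) rested on that library. Without aOPC replicate 3 it was -1.48. Per CCGG strand position in the gene span, Mbd3 (0.643 CPM) stood above 93.2% and Mbd1 (0.581 CPM) above 90.0% of 14500 genes. Dnmt1, Dnmt3a and Mbd2 had 0.425 to 0.432 CPM and stood above 76.6% to 77.4%. Uhrf1 stood above 66.8%, Uhrf2 above 48.3% and Tdg (0.108 CPM) above 16.0%, and Mbd4 has too few CCGG sites to be ranked.

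**Figure D5:**
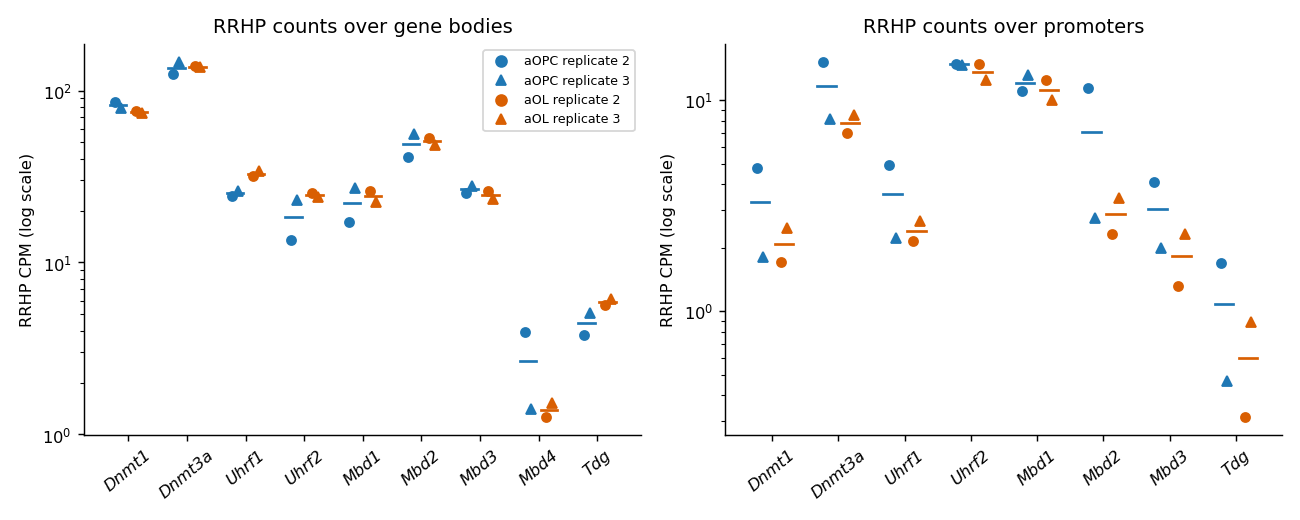
RRHP counts scaled to the library total (CPM, vertical axes, log scale) over gene bodies (left, 9 genes) and promoters (right, 8 genes) in each library, with aOPC in blue, aOL in orange and bars for the mean of 2 libraries. Gene bodies of Uhrf1 lay higher in both aOL libraries, and in most promoters aOPC replicate 2 stood above the other 3 libraries.

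Promoters were tested for 8 genes, since no promoter column names Mbd4, and none was called (edgeR, adjusted p under 0.05), where 0.768% of the 14579 promoters tested were called. None passed an unadjusted p under 0.05, against 5.97% of all. The populations overlapped in CPM in all 8 promoters. The direction of the fold changes depended on the scaling, since 3 of 8 were above 0 with TMM factors and all 8 were below 0 (-1.26 to -0.12) with library totals only, with none called under either. In Mbd2 the counts were 81 and 47 in aOPC, against 37 and 93 in aOL, that is 11.4 and 2.75 against 2.32 and 3.44 CPM, with aOPC replicate 2 far above the rest, as it was in the share of island reads. Over the fits that left out 1 library, the log2 fold change of the Mbd2 promoter ranged from -0.93 to 0.01. The TMM factor of aOPC replicate 2 for promoters was 1.75, against 0.757 to 0.936 in the other libraries. The cause of its high promoter values was not tested.

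Promoter reads were unevenly spread. The promoter column of Dnmt3a covers an upstream and an internal start, which belong to the long and the short protein form. The upstream cluster had 45 records and 64 and 38 reads in aOPC, against 43 and 107 in aOL, a mean of 0.0993 CPM per record. The internal cluster had 12 records and 44 and 102 reads in aOPC, against 68 and 124 in aOL, a mean of 0.437 CPM per record. Most of the internal reads came from the island site printed above, with 25 and 62 reads in aOPC, against 37 and 59 in aOL, that is 3.51 and 3.62 against 2.32 and 2.18 CPM. Both aOL values were lower (log2 fold change -0.76, SE 0.32), but the site was not called (edgeR, adjusted p = 0.425). The 250 bases before the upstream start are shown for the contrast, since their 7 CCGG sites (in capitals) together had 7 and 9 reads in aOPC, against 11 and 19 in aOL. CCGG was searched for on both strands, where it reads the same, and 47.1% of the 250-base RefSeq promoter windows of GRCm38.p6 hold it.
Dnmt3a upstream promoter, chr12:3806730-3806979: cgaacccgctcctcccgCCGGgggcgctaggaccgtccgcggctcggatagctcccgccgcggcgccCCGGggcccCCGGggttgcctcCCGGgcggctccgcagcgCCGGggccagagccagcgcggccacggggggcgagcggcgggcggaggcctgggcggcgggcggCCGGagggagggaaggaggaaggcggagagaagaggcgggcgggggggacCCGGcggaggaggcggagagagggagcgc

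In Uhrf2 and Mbd1, most promoter reads also came from 1 site. In Uhrf2 the site printed above, 596 bases before the RefSeq start and outside the island, had 68 and 168 reads in aOPC, against 166 and 200 in aOL (9.56 and 9.81 against 10.4 and 7.39 CPM) and gave 65.5% of the promoter CPM. The 22 island records of the same promoter averaged 0.222 CPM each. In Mbd1 an intron record at 74269161 of chromosome 18, 1556 bases into the gene, had 40 and 143 reads in aOPC, against 129 and 153 in aOL and gave 59.4% of the promoter CPM. The 13 island records of Mbd1 averaged 0.163 CPM. These 2 sites stood above 99.7% and 99.2% of all records of the series, and neither differed between the populations beyond its error (log2 fold changes of -0.24, SE 0.27, and -0.16, SE 0.28).

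The other promoters were low throughout. Dnmt1 had 34 and 31 reads in aOPC, against 27 and 67 in aOL, Uhrf1 35 and 38 then 34 and 72, and Mbd3 29 and 34 then 21 and 63. Tdg had the fewest, 12 and 8 in aOPC, against 5 and 24 in aOL over 9 records, of which the strongest had 0.218 CPM. At these depths no difference was found in the Tdg promoter (log2 fold change -0.06, SE 0.59), and the size that could have been found was not tested.

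No single record of the 9 genes was called (edgeR, adjusted p under 0.05), where 2.29% of the 443062 records tested were called. At an unadjusted p under 0.05, 18 of the 168 tested records passed, 9 higher and 9 lower in aOL, which is 10.7% against 9.75% of all records tested. They lay in Dnmt3a (3 higher, 5 lower), Dnmt1 (3 and 3), Uhrf1 (2 higher), Mbd2 (1 higher) and Mbd3 (1 lower), and no record passed in Uhrf2, Mbd1 or Tdg. Reads were mostly on 1 strand of a CCGG. Of 135 CCGG sites of the 9 genes with at least 40 reads in all, 105 (77.8%) had over 80% of them on 1 strand, against 79.7% over all genes. The Dnmt3a intron site had 0 reads on the other strand in all 4 libraries, whereas the coding exon site at 80395140 of chromosome 10 in Mbd3 had 23, 91, 65 and 72 reads on one strand and 19, 57, 72 and 70 on the other.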

How the data were processed

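RNA-seq and RRHP libraries of 2 aOPC and 2 aOL samples each were used. For RNA, the deposited values are log2 levels per gene, which the authors made by aligning to mm10 with BWA, counting with featureCounts and normalizing, and their quartiles are equal in the 4 libraries. Per the labels' processing notes DESeq2 1.2.5 was used. The deposited RNA values hold no counts, so no detection floors are given for RNA. For RRHP, the deposited counts are raw reads per CpG and strand, aligned to mm10, with promoter, exon, intron and island columns by the authors. The aligner of the RRHP reads is not given in the sources used here. Same-numbered libraries list the same sites, and a site missing from a table was given a count of 0. Such a 0, like any other, allows up to 3 counts (0.111 to 0.422 CPM), counting error only, since reads carried no molecular identifiers.

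RNA was tested with limma 3.58.1 (genes with log2 of at least 5 in at least 2 libraries, called at p under 0.01 with adjusted p under 0.05), since the files hold no counts for the authors' DESeq2 test. For RRHP, edgeR 4.0.16 ran its quasi-likelihood test (TMM, totals of all sites as library sizes) on gene bodies and promoters after filterByExpr and on sites that reached 10 reads in 2 or more libraries, called at an adjusted p under 0.05. SEs of edgeR fold changes were derived from the F statistic. All fits ran over all features, in R 4.3.3, with DESeq2 1.42.0 as an alternative, and were tested on simulated data. CPM divides counts by the library total, and levels per kb subtract the log2 of the merged GENCODE exon length. Fold changes are TMM-scaled, so they can differ from ratios of CPM. Text names all 9 genes, pathway genes at an unadjusted RNA p under 0.05 or of known role, and per gene the 2 highest gene body sites and the highest promoter site. The replicate numbers are shared by both populations, whose samples come from different reporter mice, so the main fits have no block. The members and lists were chosen with earlier results of these data known. The sequences are RefSeq GRCm38.p6. Promoter sequences were available for 7 of the 9 genes, all but Mbd1 and Mbd2, and no sequences of Mbd1, Mbd2 or Mbd4 are shown.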

Additional observations from a re-analysis of the deposited data

How the results depend on the processing

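The call count of 0 among the 9 genes held in RNA, gene bodies and promoters under every alternative that kept all 4 libraries, and among single sites under all such alternatives except the replicate block and a minimum of 3 reads in total, with 1 site called in each (the Uhrf1 site at 56320217). Leaving out 1 library gave 0 to 2 called genes in RNA, 0 to 4 in gene bodies, 0 to 0 in promoters and 0 to 0 sites. The 2 RNA calls (Dnmt1 and Mbd2) came without aOPC replicate 2 and the 4 gene body calls (Uhrf1, Uhrf2, Mbd1 and Mbd4) without aOPC replicate 3. In these fits the lone aOPC library is assumed to vary like aOL, and 3805 of all RNA genes and 4205 of all gene bodies were called, against 9 and 157 with all libraries.

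Of 508 values of single genes and sites under alternatives, 37 reversed, all with no call on either side, and the cause was not tested. The Dnmt1 promoter was at 0.02 with the size factors of DESeq2 in edgeR and at 0.02 in DESeq2. With library totals only, promoters were at -0.54 (Uhrf1), -0.13 (Uhrf2) and -0.12 (Mbd1), and the other 5 moved further below 0, to -1.26 (Mbd2, from -0.54), -0.62 (Dnmt1), -0.57 (Dnmt3a), -0.70 (Mbd3) and -0.69 (Tdg), so that all 8 were lower in aOL and none was called. With that scaling the Dnmt3a site at 3815137 was at 0.08, and it was 0.14 with at least 10 reads in every library and 0.16 with at least 3 in total. The Mbd1 site at 74269161 was at 0.01 with at least 3 reads in total.

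Over the fits that left out 1 library, RNA differences ranged from 0.53 to 1.46 (Dnmt1), 0.72 to 1.12 (Mbd2), -0.12 to 0.30 (Dnmt3a), -0.10 to 0.19 (Mbd1), -0.42 to 0.06 (Mbd3), -0.16 to 0.31 (Mbd4) and -0.32 to 0.19 (Tdg). Gene bodies ranged from 0.06 to 0.87 (Uhrf2), -1.48 to -0.02 (Mbd4), -0.18 to 0.50 (Mbd1), -0.17 to 0.29 (Mbd2), 0.20 to 0.65 (Tdg), -0.20 to -0.03 (Mbd3) and -0.12 to 0.15 (Dnmt3a). Promoters ranged from -0.14 to 0.15 (Dnmt1), -0.14 to 0.08 (Dnmt3a), -0.16 to 0.93 (Uhrf2), -0.28 to 1.08 (Mbd1), -0.93 to 0.01 (Mbd2), -0.44 to 0.05 (Mbd3) and -0.85 to 0.37 (Tdg). Sites ranged from -0.18 to 0.16 and -0.09 to 0.41 (Dnmt3a at 3815137 and 3913040), -0.37 to 0.10 and -0.15 to 1.13 (Mbd1 at 74269161 and 74272755), -0.01 to 0.79 (Mbd2 at 70605093), -0.62 to 0.09 and -0.10 to 1.69 (Tdg at 82641404 and 82647270), 1.11 to 8.2 (Uhrf1 at 56320217), and -0.46 to 0.00 (Uhrf2 at 30029834).

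With the replicate block, 0 of the 9 genes were called in RNA, 0 gene bodies, 0 promoters and 1 site, and over all features the calls were 127 RNA genes, 209 gene bodies, 81 promoters and 13027 sites. The replicate differences of aOPC and aOL correlated at -0.07 in RNA, -0.41 in gene bodies, -0.44 in promoters and -0.08 at sites. These values give no sign of a pairing by number, although same-numbered RRHP libraries list the same sites. A crossed replicate block, chosen after seeing the data, called 228 gene bodies higher and 490 lower and 249 promoters higher and 88 lower, with 0 of the 9 genes in either. With no filter on low values the RNA fit called 0 of 11315 genes (2661 at an unadjusted p under 0.05), with log2 of at least 5 in all 4 libraries 0 of 10584 (2634), and with a mean-variance trend 23. Gene bodies called were 10 when sites under 3 reads in any library were left out of the sum and 247 without promoter sites, promoters 67 in DESeq2 and 219 with no filter, and sites 6590 in DESeq2, 490 with at least 10 reads in every library and 23316 with at least 3 in total. Scaling by library totals only turned the split of promoter calls from 61 higher and 51 lower to 31 higher and 68 lower. Of the 518 records of the 9 genes, 168 had enough reads to be tested singly.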

Other observations

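The gene bodies of related genes were read in RRHP as well, and none of the 6 related lists had a called gene body. At an unadjusted edgeR p under 0.05, 4 of their 73 tested genes passed, against 7.30% of all gene bodies tested, and these were named after their values were seen. Chd4, the remodelling ATPase of NuRD, had 36.0 and 48.2 CPM in aOPC and 55.5 and 55.2 CPM in aOL (log2 fold change 0.37, SE 0.15, edgeR adjusted p = 0.632), and Gatad2a, another NuRD subunit gene, had 36.4 and 25.6 CPM in aOPC and 22.9 and 22.2 CPM in aOL (-0.44, SE 0.17, edgeR adjusted p = 0.561). Setdb2, a histone methyltransferase gene with an MBD-like domain, had 3 and 5 reads in aOPC and 23 and 35 in aOL. It passed the count filter only through aOL, and its aOPC reads lay near the floor of 3 counts. No size is therefore given for its difference. Mki67, the division marker, had 7.03 and 6.31 CPM in aOPC and 12.6 and 8.43 CPM in aOL (0.64, SE 0.25, edgeR adjusted p = 0.588). Both aOL libraries were above both aOPC libraries in Chd4, Setdb2 and Mki67 and below them in Gatad2a.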
